A study of Mus musculus with 18 samples.

Results

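The Hox clusters are 4 runs of neighbouring homeobox genes on different chromosomes, HoxA, HoxB, HoxC and HoxD, and their transcripts were followed here in 18 mouse RNA libraries. Members were all genes whose name consists of Hox, a cluster letter from a to d and a position number, with the deposited transcript values summed per gene. This rule used no measured value. It found 39 genes among the 35310 genes of the deposited tables, with 11 in HoxA on chromosome 6, 10 in HoxB on chromosome 11, 9 in HoxC on chromosome 15 and 9 in HoxD on chromosome 2 (mm10). There were 36 members in the table of MCA205 cells, 35 in that of TC1 cells and 38 in that of tumours, and 34 were in all 3 tables. Hoxb1, Hoxd1 and Hoxd12 were not listed for MCA205 cells, Hoxb13, Hoxc12, Hoxd1 and Hoxd12 were not listed for TC1 cells, and Hoxb1 was not listed for tumours.

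The libraries fell into 6 groups of 3. Cultured MCA205 cells and cultured TC1 cells each gave a wild-type group and a group labelled sgNAT10, in which a CRISPR guide was directed at Nat10. Tumours labelled TC1, which grew under the skin of mice after cell injection and were collected on day 8, gave the same pair of groups. MCA205 is a fibrosarcoma line induced by methylcholanthrene. TC1 cells are generally known as lung epithelial cells carrying viral and Ras oncogenes, whereas the labels call both lines fibrosarcoma. NAT10 is an enzyme that places acetyl groups on cytidines of RNA. The labels do not say whether an sgNAT10 line is 1 clone or a pool, what guide the wild-type cells carried, the strain, sex or age of the mice, or whether libraries of a group came from separate cultures or animals. Each p-value thus measures variation among libraries that may be only technical, and drift of a cell population and the effect of the guide cannot be told apart.

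Hox genes encode transcription factors that give cells their position along the head-to-tail axis of the embryo and along the limbs. Within a cluster the genes at the 3′ end, with low numbers, are generally activated earlier and closer to the head than those at the 5′ end, with high numbers, and adult mesenchymal cells such as fibroblasts keep a pattern of Hox transcripts that reflects where in the body they came from. HOX proteins bind DNA together with PBX, MEIS and PKNOX cofactors, retinoic acid activates many 3′ genes, and Polycomb and trithorax complexes hold Hox genes in the silent or the active state. The clusters also hold microRNAs of the miR-10 and miR-196 families, and miR-196 is known to target Hox transcripts such as Hoxb8.

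Start regions are shown for the members that led a cluster by level or carried the largest changes described below, with every CpG dinucleotide in capitals, because the density of CpG differs widely among Hox starts. Hoxa9 and Hoxd8 had the highest group mean of their clusters, and Hoxb8 and Hoxa5 had large changes in TC1 cells. Hoxd13 was added after its values were seen. The sequences are RefSeq windows of 300 bases around the transcription start on GRCm38.p6, written 5′ to 3′ on the gene's strand. The Hoxd8 window holds the start of a minor transcript, at 0 to 0.450 FPKM in the MCA205 libraries. The leading Hoxd8 transcript, 72.0% of the gene's FPKM in wild-type MCA205 cells, starts at chr2:74704905, outside the window.
Hoxa9 (chr6:52227321-52227620, minus strand): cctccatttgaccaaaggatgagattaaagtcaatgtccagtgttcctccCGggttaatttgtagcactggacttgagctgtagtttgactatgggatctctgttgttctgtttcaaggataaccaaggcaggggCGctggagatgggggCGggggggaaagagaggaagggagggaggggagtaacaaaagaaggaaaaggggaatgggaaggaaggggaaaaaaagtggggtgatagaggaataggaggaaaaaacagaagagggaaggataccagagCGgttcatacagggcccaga
Hoxd8 (chr2:74704365-74704664, plus strand): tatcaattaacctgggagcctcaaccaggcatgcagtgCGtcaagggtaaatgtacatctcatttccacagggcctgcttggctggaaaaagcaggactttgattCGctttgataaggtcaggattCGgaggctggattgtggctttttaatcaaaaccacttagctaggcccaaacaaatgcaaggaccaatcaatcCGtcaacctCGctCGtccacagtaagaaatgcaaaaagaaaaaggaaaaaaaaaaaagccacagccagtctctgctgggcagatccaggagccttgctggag
Hoxb8 (chr11:96281655-96281954, plus strand): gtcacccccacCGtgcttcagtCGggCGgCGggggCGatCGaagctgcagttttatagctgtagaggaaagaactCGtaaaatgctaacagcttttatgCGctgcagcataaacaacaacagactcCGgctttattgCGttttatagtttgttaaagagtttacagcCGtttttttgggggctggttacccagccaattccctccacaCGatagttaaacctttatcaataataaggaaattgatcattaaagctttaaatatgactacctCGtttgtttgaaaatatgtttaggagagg
Hoxa5 (chr6:52204538-52204837, minus strand): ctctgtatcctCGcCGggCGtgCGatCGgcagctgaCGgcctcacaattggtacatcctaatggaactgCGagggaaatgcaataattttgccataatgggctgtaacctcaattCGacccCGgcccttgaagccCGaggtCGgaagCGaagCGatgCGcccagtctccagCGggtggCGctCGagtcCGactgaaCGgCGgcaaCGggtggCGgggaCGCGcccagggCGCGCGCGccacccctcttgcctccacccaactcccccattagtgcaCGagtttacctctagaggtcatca
Hoxd13 (chr2:74667975-74668274, plus strand): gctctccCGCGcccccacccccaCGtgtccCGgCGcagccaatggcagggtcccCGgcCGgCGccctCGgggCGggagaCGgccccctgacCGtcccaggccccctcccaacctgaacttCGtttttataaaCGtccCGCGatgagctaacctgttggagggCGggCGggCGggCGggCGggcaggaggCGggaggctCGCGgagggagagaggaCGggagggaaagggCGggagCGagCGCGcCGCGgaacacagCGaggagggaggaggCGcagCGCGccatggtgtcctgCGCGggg
These windows held 4, 6, 13, 29 and 37 CpG dinucleotides in that order. RefSeq windows were matched for 22 of the 39 members, 24 windows in all, and their median was 14.5 CpG, against 7 over all 32851 windows of the table. Hoxb9 and Hoxc10, the highest members of HoxB and HoxC, were not matched. The TATA box TATAAA, searched on both strands, was in 4 of the 24 Hox windows (16.7%) against 13.6% of all windows, and these were the windows of Hoxd13, Hoxb8, Hoxd4 and Hoxa10. TGATTNAT, a site for HOX bound with PBX, was in 2 Hox windows (8.33%) against 3.22% of all. A direct repeat of the retinoic acid receptor half-site AGGTCA with 5 bases between, searched on both strands, was in none of the 24 windows and in 0.00913% of all.

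Mature microRNAs of the miR-196 and miR-10 families are shown because the precursor of a member of the miR-196 family lay 6192 bases upstream of the annotated start of Hoxb9 and changed with it in TC1 cells. Capitals mark the seed, bases 2 to 8, which is the same within each family.
miR-196a-5p: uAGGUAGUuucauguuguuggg
miR-196b-5p: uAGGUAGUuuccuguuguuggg
miR-10a-5p: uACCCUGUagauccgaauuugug
miR-10b-5p: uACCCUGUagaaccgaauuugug
These RefSeq sequences come from precursors in HoxB and HoxC (miR-196a), HoxB (miR-10a), HoxA (miR-196b) and HoxD (miR-10b). The libraries were not made to capture mature microRNAs, so only their precursor or host transcripts were measured.

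Libraries held between 51661298 and 78501790 estimated counts, of which Hox genes took 0.0266% to 0.0487%. Levels are summed FPKM, fragments scaled to transcript length and library size. Nat10 lay between 12.5 and 14.2 FPKM in wild-type and between 13.2 and 13.6 in sgNAT10 MCA205 cells, and the ranges also overlapped in TC1 cells (13.9 to 15.9 against 11.7 to 14.2) and in tumours (14.8 to 16.2 against 12.3 to 16.3), so its transcript level does not check the genotype labels. Members of liver and intestine marker lists were found in cultured cells: the liver markers summed to 727 to 1312 FPKM in TC1 libraries and to 0.660 to 79.8 FPKM in MCA205 libraries, lowest in wild type 1 and sgNAT10 2. The lung epithelial regulator Nkx2-1 reached at most 0.0703 FPKM in any library. Of the 10 lung epithelium markers, Nkx2-1 included, 6 reached a mean of 1 FPKM in wild-type MCA205 cells and 4 in every other group. Their sum was 27.9 to 122 FPKM in wild-type TC1 libraries. Of 10 mesenchymal markers, 9 or 10 reached 1 FPKM in every group.

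A pair of findings bears on the labels and comes before the results. The tumours labelled TC1 had the Hox pattern of MCA205 cells and not that of TC1 cells, as described below. Outside the Hox clusters, 19 genes held at least 5 FPKM in each of 6 MCA205 libraries and at most 0.5 FPKM in 5 TC1 libraries, leaving TC1 wild type 1 aside. Their median was 5.26 to 7.91 FPKM across the 6 tumour libraries. In each tumour library 11 to 13 of the 19 reached 5 FPKM. For 40 genes with the opposite pattern the median was 0.0619 to 0.786 FPKM in the tumours. Of these 40, 0, 0 and 2 reached 5 FPKM in the wild-type tumours and 5, 8 and 6 in the sgNAT10 tumours. TC1 wild type 1 stood apart from the other TC1 libraries: Hoxa10, Hoxa11, Hoxc9, Hoxc10, Hoxc11 and Hoxd8, which the other TC1 libraries nearly lacked, were at 7.30% to 14.5% of the MCA205 wild-type mean in it (median 10.4%), and the 19 genes were at a median of 12.6%. Whether cells or RNA were exchanged or mixed was not tested. The libraries are named by their labels throughout, and each direction in the tumours belongs to the libraries labelled wild type and sgNAT10.

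Wild-type MCA205 cells expressed mainly the 5′ genes of HoxA and HoxC. In their 3 libraries Hox transcripts summed to 163 ± 5.36 FPKM (SD, n = 3), with 45.0% from HoxA, 40.03% from HoxC, 9.48% from HoxD and 5.51% from HoxB. Positions 9 to 13 gave 67.7% of the sum. All 11 HoxA members had a mean of at least 1 FPKM, compared with 7 of 9 in HoxC, 4 of 10 in HoxB and 3 of 9 in HoxD.

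Hoxc10, a gene of lumbar and hindlimb identity, had the highest level in wild-type MCA205 cells, 22.8, 22.6 and 25.1 FPKM in the 3 libraries. Hoxa10, which patterns the uterus and the lumbar region, stood at 19.6, 21.5 and 21.3 FPKM, and Hoxa9, known for its role in blood progenitors and leukaemia, at 18.1, 20.3 and 19.7. Hoxc10 was above Hoxa10 in every pair of libraries, whereas the ranges of Hoxa10 and Hoxa9 overlapped. Hoxc11 (16.6, 16.3 and 17.3 FPKM) and Hoxa11, needed with Hoxd11 for the forearm bones (12.6, 12.1 and 13.9 FPKM), followed. Hoxc6 was at 10.8, 9.32 and 11.9 FPKM and Hoxd8 at 9.66, 8.34 and 9.07. Hoxa7 was lower, at 7.08, 7.24 and 7.16 FPKM, and Hoxc9 was at 5.69, 6.50 and 5.67. The remaining members had means below 5 FPKM in these cells.

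**Figure D1:**
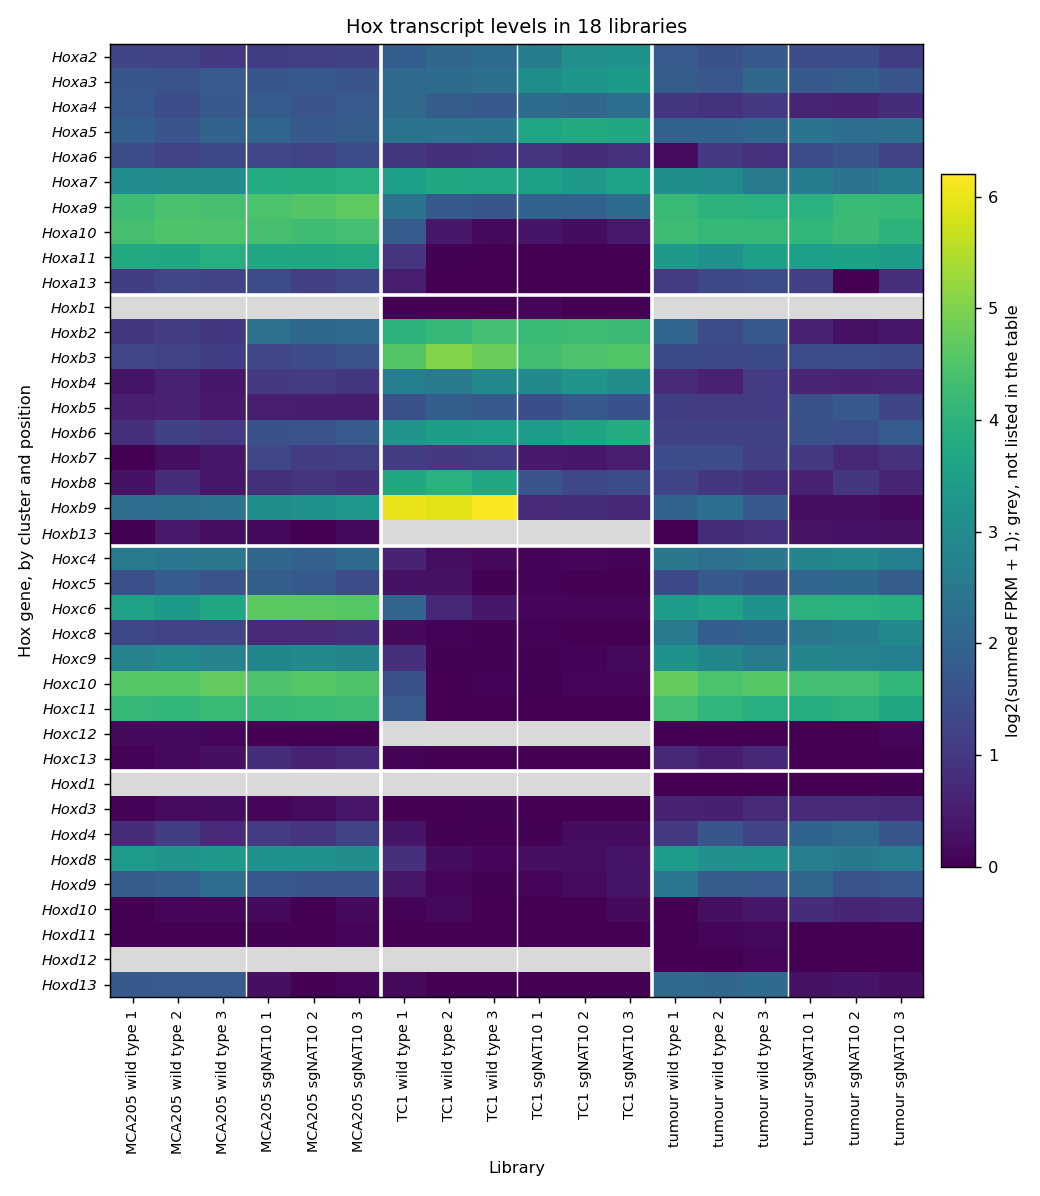
Colour gives log2(summed FPKM + 1) for 38 Hox genes (vertical, by cluster and position) in 18 libraries (horizontal), with grey for genes not listed in a table. MCA205 cells and the tumours labelled TC1 were bright at the 5′ end of HoxA and across HoxC, with Hoxc10 at 22.6 to 25.1 FPKM in wild-type MCA205 libraries, whereas wild-type TC1 cells were bright across HoxB, with Hoxb9 at 59.4 to 69.0 FPKM.

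Wild-type TC1 cells expressed a different set. Their Hox sum was similar in size, 176 ± 3.05 FPKM, but HoxB gave 79.2% of it and HoxA 18.4%. Hoxb9, which acts in rib and mammary development, was at 62.3, 59.4 and 69.0 FPKM, more than any other Hox gene in any group. Hoxb3, a hindbrain and pharyngeal gene, was at 22.5, 31.9 and 27.1 FPKM, and Hoxb2, which specifies facial motor neurons, at 15.2, 16.5 and 19.3. Hoxb8, used in the laboratory to keep myeloid progenitors dividing, stood at 12.2, 14.5 and 12.3 FPKM, just below the range of Hoxb2. Hoxb6 (8.36, 10.01 and 10.3 FPKM) and Hoxb4, an expander of blood stem cells (5.41, 4.99 and 6.50 FPKM), were also above the MCA205 level in every library. In HoxA the highest gene was Hoxa7, at 10.3, 12.1 and 11.7 FPKM.

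HoxC and HoxD were near silence in TC1 cells other than wild type 1. The HoxC sum was 9.11 FPKM in wild type 1, 1.10 in wild type 2 and 0.537 in wild type 3, and the HoxD sum was 1.55, 0.363 and 0.119 FPKM. Hoxc6 alone gave 3.07, 0.648 and 0.309 FPKM in these libraries. Each of these values in wild type 1 exceeded those of the other wild-type libraries, so HoxC and HoxD levels of the wild-type group rest on it. In sgNAT10 TC1 libraries Hoxa10, Hoxa11, Hoxc8 to Hoxc11 and Hoxd8 were at most at 0.333 FPKM.

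**Figure D2:**
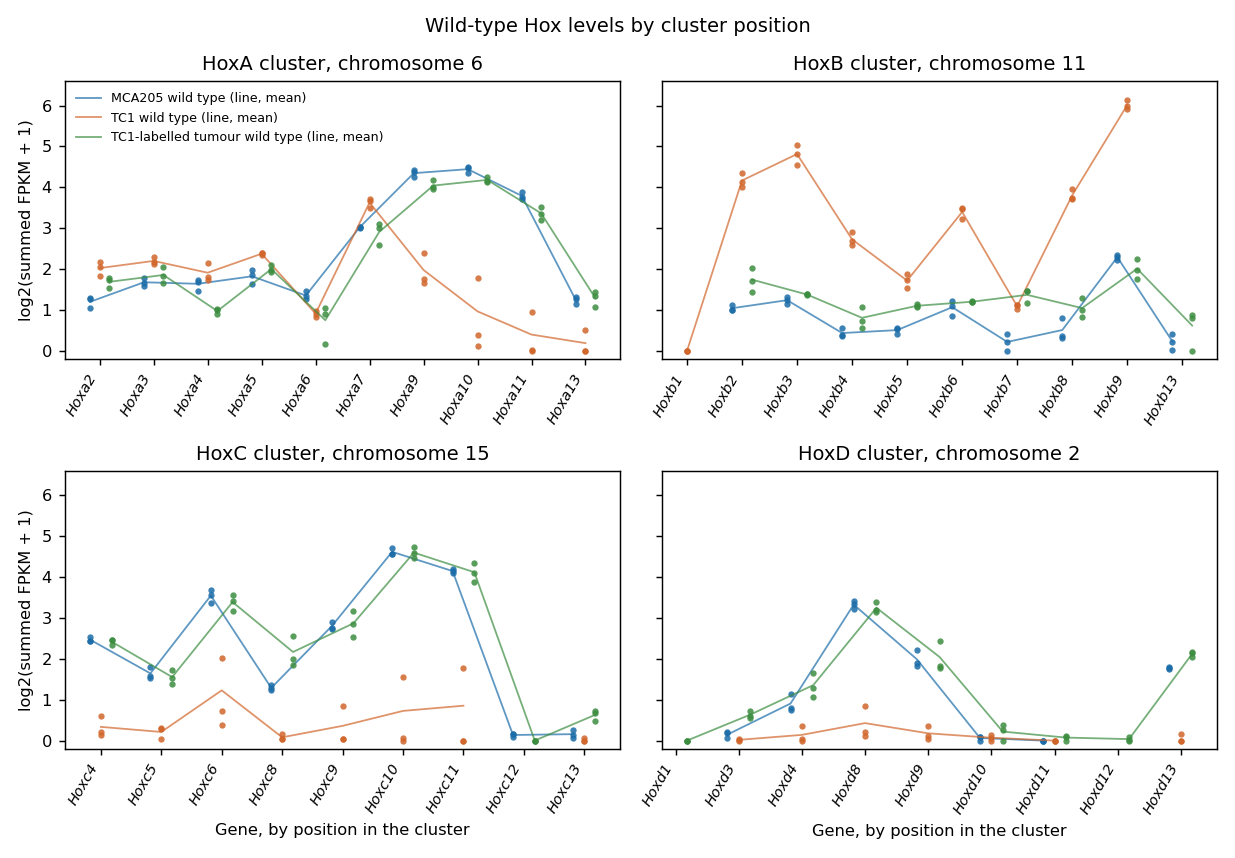
Each panel is a cluster, with genes on the horizontal axis by position and log2(summed FPKM + 1) on the vertical axis; points are the 3 wild-type libraries of MCA205 cells, TC1 cells and the tumours labelled TC1, and lines join group means. The tumour line follows the MCA205 line, as for Hoxa11 (12.1 to 13.9 FPKM in MCA205 cells, 8.16 to 10.5 in tumours, 0 to 0.938 in TC1 cells).

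In wild-type tumours labelled TC1 the Hox pattern lay close to that of MCA205 cells. The sum was 157 ± 11.8 FPKM, with HoxC at 41.6%, HoxA at 38.9%, HoxD at 11.01% and HoxB at 8.52%. Hoxc10 (25.7, 20.9 and 22.9 FPKM), Hoxa10 (18.03, 16.9 and 16.6 FPKM), Hoxc11 (19.3, 16.0 and 13.7 FPKM) and Hoxa9 (17.0, 14.97 and 14.5 FPKM) were again the 4 highest members. The library ranges of the last 3 overlapped. Hoxb9, at 59.4 FPKM or more in wild-type TC1 cells, was at 2.93, 3.79 and 2.38 FPKM.

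Across the 34 members in all 3 tables, group means of log2(FPKM + 1) gave a Pearson r of 0.96 between wild-type tumours and wild-type MCA205 cells and −0.04 between these tumours and wild-type TC1 cells, and Spearman rho was 0.92 and 0.13. These are correlations across genes, which are not independent replicates, and the tables may have been normalised separately. On that scale 33 of 34 members were within 2-fold of the MCA205 level and 13 of 34 within 2-fold of the TC1 level. The added 1 brings members near or below 1 FPKM closer together. On FPKM itself, some low members of wild-type tumours were not within 2-fold of the wild-type MCA205 mean. Hoxb7 was at 959% of it, Hoxd3 at 516% and Hoxa6 at 43.9%. Several members were above both lines in the tumours. Hoxc8, which guides brachial motor neurons, was at 4.84, 2.61 and 3.01 FPKM in wild-type tumours, against 1.55, 1.36 and 1.42 in MCA205 cells. Protein-coding transcript gave 34.5% of Hoxc8 FPKM in these tumours and 54.5% in wild-type MCA205 cells, and the rest was a retained-intron transcript. Hoxd3 reached 0.465 to 0.659 FPKM against at most 0.147 in wild-type cells of either line, but 53.1% of its annotated exon bases are shared with the gene Gm28230. In bulk samples, fewer cells of a type and less RNA per cell cannot be told apart, and tumour samples also hold host cells.

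**Figure D3:**
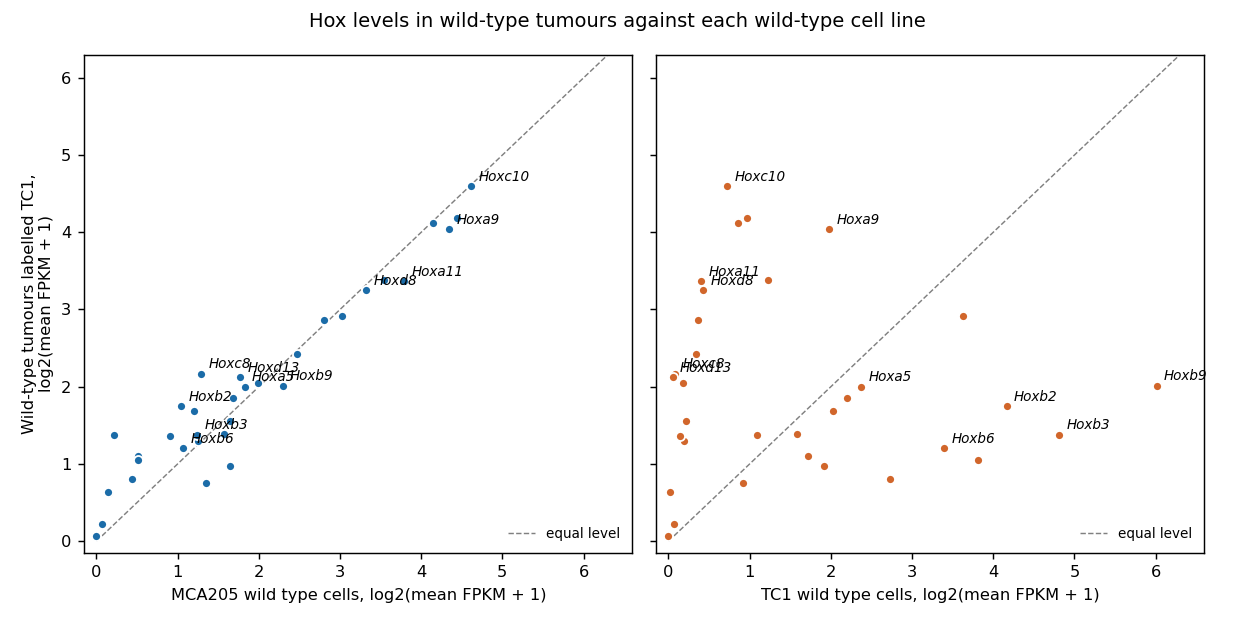
Each point is 1 of 34 Hox genes, with its mean level in wild-type MCA205 cells (left) or wild-type TC1 cells (right) on the horizontal axis and in wild-type tumours labelled TC1 on the vertical axis, all as log2(mean FPKM + 1); the dashed line marks equal levels. Points lie along the line on the left (r = 0.96) and away from it on the right (r = −0.04), where Hoxb9 had a mean of 63.5 FPKM in TC1 cells and 3.03 in the tumours.

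Between sgNAT10 and wild-type MCA205 cells, 5 of 9 tested HoxB genes were higher and 6 members of the other clusters were higher or lower, while the most abundant 5′ genes of HoxA and HoxC did not pass the test. Of 39 members 33 passed the filter on low counts and were tested with edgeR quasi-likelihood tests, adjusted over all genes by the Benjamini-Hochberg method. A change was called at an adjusted p under 0.05. Higher levels were called for 8 Hox genes and lower levels for 3, together 33.3% of those tested, where 40.6% of all 18101 genes were called (21.2% higher and 19.4% lower). The members' share was thus no larger than that of all genes. A change of at least 2-fold was called for 9 of the 33 tested members, where 9.88% of all 18101 genes had one. In 16 of 33 members the libraries of the groups did not overlap, against 52.6% of all genes. The median log2 change was 0.09 over the Hox genes and −0.03 over all genes.

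In HoxB, 5 of 9 tested members were higher and none lower, with 7 of 9 at an unadjusted p under 0.05. The share of all genes at that unadjusted p was not computed. Hoxb2 had 1.01, 1.17 and 1.01 FPKM in the wild-type and 3.99, 3.24 and 3.33 in the sgNAT10 libraries, a log2 change of 1.63 ± 0.17 (SE, adjusted p = 0.000395). Every sgNAT10 library was above every wild-type library. Hoxb9 (gene ENSMUSG00000020875, chr11:96271457-96276595, plus strand) had 3.66, 3.92 and 4.13 FPKM in wild-type and 7.53, 8.02 and 8.96 in sgNAT10 libraries, again without overlap, and its log2 change was 1.07 ± 0.08 (SE, adjusted p = 0.000109). Hoxb4 went from 0.283, 0.476 and 0.305 FPKM to 1.09, 1.11 and 0.968, a change of 1.58 ± 0.27 (SE, adjusted p = 0.00355).

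Hoxb6 and Hoxb8 were called at low levels. Hoxb6 libraries held 0.814, 1.34 and 1.15 FPKM in the wild type and 1.89, 1.995 and 2.43 with sgNAT10, which gave a log2 change of 0.94 ± 0.23 (SE, adjusted p = 0.017). For Hoxb8 the values were 0.241, 0.741 and 0.295 FPKM and 0.814, 0.955 and 0.819, with a log2 change of 1.20 ± 0.36 (SE, adjusted p = 0.0368). Groups did not overlap in either gene, although wild type 2 was high for both. That library also held skeletal muscle markers at a sum of 78.2 FPKM, against 3.64 and 6.24 in wild type 1 and 3. Its skin and hair follicle markers summed to 45.9 FPKM, against 0.466 and 0.728. Whether this bears on its Hox levels was not tested. The call of Hoxb8 was lost under 7 of 13 other settings, among them leaving out any 1 library except wild type 2, with adjusted p-values up to 0.123. Without wild type 3 or without sgNAT10 3 the call of Hoxb6 was lost (adjusted p = 0.0511 and 0.0775). Hoxb7 had the largest fitted change of the cluster, from 0, 0.174 and 0.323 FPKM to 1.504, 1.15 and 1.24, but missed the threshold at an adjusted p of 0.0563. The cluster's summed level was 8.98 ± 1.03 FPKM in wild-type and 19.3 ± 0.898 in sgNAT10 libraries.

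HoxA differed at a single position. Hoxa7, a thoracic patterning gene, had 7.08, 7.24 and 7.16 FPKM in wild-type and 13.1, 13.4 and 13.7 in sgNAT10 MCA205 libraries, and its log2 change was 1.03 ± 0.06 (SE, adjusted p = 2.6e-05). The spread within each group was small beside the gap between them. Its neighbours Hoxa6 and Hoxa9 were not called: Hoxa9 had 18.1, 20.3 and 19.7 FPKM in wild-type and 20.6, 22.2 and 24.5 in sgNAT10 libraries. Hoxa10 had 19.6, 18.3 and 19.3 FPKM and Hoxa11 11.8, 11.9 and 12.6 FPKM in sgNAT10 libraries, close to the wild-type values above. Hoxa2 to Hoxa6 and Hoxa9 to Hoxa13 had log2 changes between −0.10 and 0.16. Hoxa2, Hoxa3 and Hoxa5 lay between 1.06 and 3.07 FPKM over the 6 MCA205 libraries and Hoxb3 between 1.22 and 2.05.

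HoxC held changes in both directions among neighbours. Hoxc6 (gene ENSMUSG00000001661, chr15:102998257-103011881, plus strand), a thoracic gene, had 10.8, 9.32 and 11.9 FPKM in wild-type and 23.9, 23.4 and 22.5 in sgNAT10 libraries, a log2 change of 1.17 ± 0.09 (SE, adjusted p = 9.49e-05). Hoxc4, the most 3′ gene of the cluster, was lower, with 4.77, 4.38 and 4.45 against 3.11, 2.76 and 3.36 FPKM and a log2 change of −0.55 ± 0.12 (SE, adjusted p = 0.00902). Hoxc8 was lower too, with 1.55, 1.36 and 1.42 against 0.681, 0.709 and 0.783 FPKM and a log2 change of −1.001 ± 0.19 (SE, adjusted p = 0.00585). In none of these 3 genes did the groups overlap. The call of Hoxc4 was lost when wild type 1 and sgNAT10 2, the libraries with little liver and intestine transcript, were both left out (−0.43, adjusted p = 0.0687). Hoxc9 was at 6.204, 6.69 and 6.03 FPKM in sgNAT10 libraries, Hoxc10 at 21.3, 22.7 and 21.6 FPKM, and Hoxc11 at 16.9, 17.1 and 18.2 FPKM. These 3 more 5′ genes were not called. Hoxc13, a regulator of hair keratin genes that lay outside the rule for values by library and is given after its values were seen, had 0.0498, 0.106 and 0.191 FPKM in wild-type and 0.729, 0.505 and 0.602 in sgNAT10 libraries (log2 change 2.39 ± 0.52 SE, adjusted p = 0.00977).

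In HoxD the most 5′ gene fell to near 0. Hoxd13 (gene ENSMUSG00000001819, chr2:74668310-74671599, plus strand), which patterns the digits, had 2.36, 2.41 and 2.46 FPKM in wild-type and 0.184, 0 and 0.0676 in sgNAT10 libraries. All wild-type libraries were far above all sgNAT10 libraries, and the fitted log2 change was −4.81 ± 1.14 (SE, adjusted p = 0.0137). The call was lost without sgNAT10 3 (adjusted p = 0.0645), although the direction held. Hoxd8, the highest gene of the cluster, had 9.66, 8.34 and 9.07 FPKM against 8.17, 8.08 and 7.41 and did not pass (adjusted p = 0.0792). Fibroblast and pericyte markers moved with the genotype in these cells: 3 of 10 were called higher and 3 lower, and their sum was 98.4 to 120 FPKM in wild-type and 254 to 263 FPKM in sgNAT10 libraries. Dcn, a matrix proteoglycan, alone went from 14.2 ± 3.41 to 195 ± 3.88 FPKM (log2 change 3.79 ± 0.16 SE, adjusted p = 7.73e-06), whereas the collagen gene Col1a2 went from 28.8 ± 1.36 to 1.60 ± 1.28 FPKM (log2 change −4.42 ± 0.74 SE, adjusted p = 0.00304), and the median log2 change of the list was −0.73. No marker of the list was at 0 in all 3 libraries of a group. The part of this difference in the Hox changes was not tested.

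**Figure D4:**
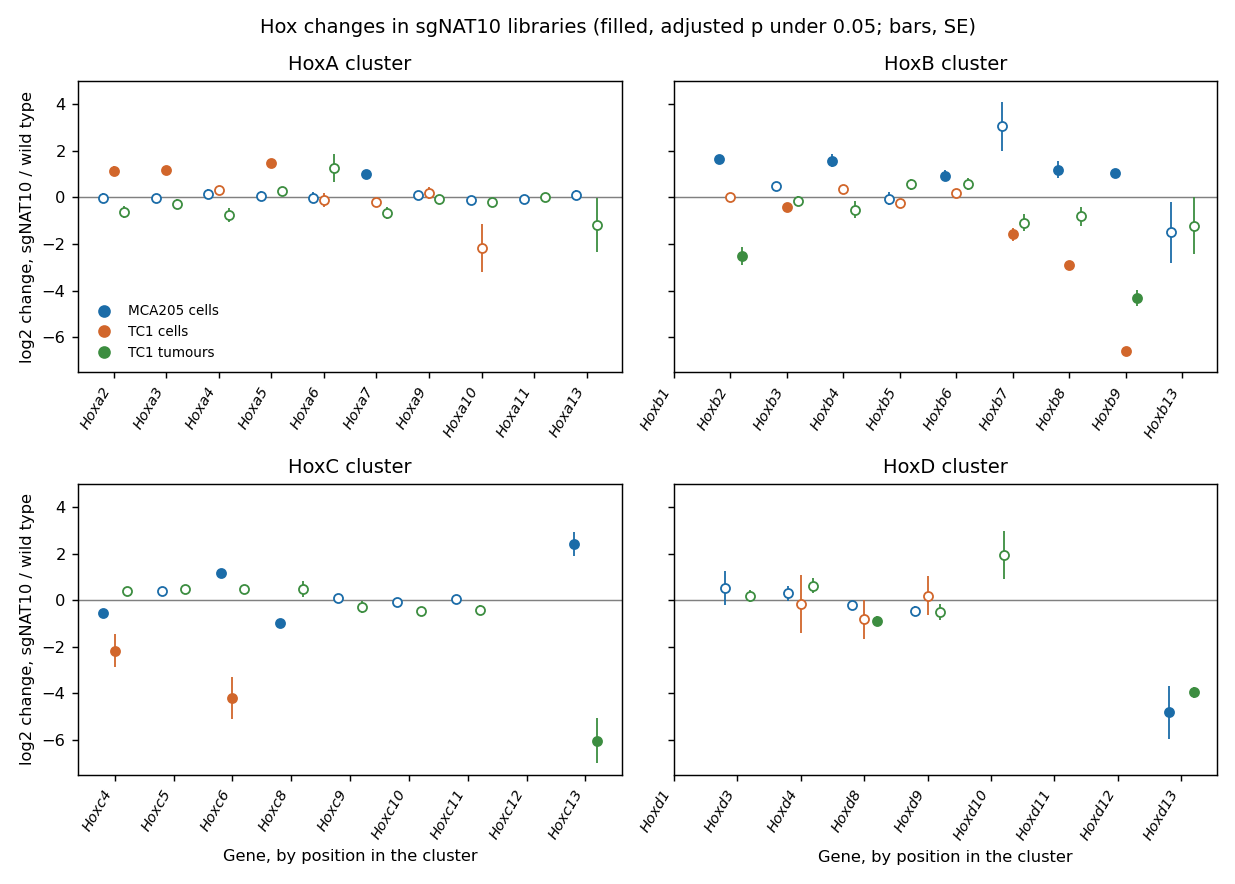
Each panel is a cluster, with genes by position on the horizontal axis and the edgeR log2 change of sgNAT10 against wild type on the vertical axis for MCA205 cells, TC1 cells and tumours labelled TC1; filled points had an adjusted p under 0.05 and bars are SE. Hoxb9 shows changes of 1.07, −6.58 and −4.32 in these 3 comparisons, and Hoxd13 changes of −4.81 in MCA205 cells and −3.96 in tumours.

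In TC1 cells, 3′ HoxA genes were higher and 5′ HoxB genes lower with sgNAT10. Of the 22 members that passed the filter, 4 were called higher and 6 lower, 45.5% of those tested, where 37.9% of all 18823 genes were called (15.9% higher and 22.0% lower). A change of at least 2-fold was called for 8 members, where 12.4% of all genes had one. Groups did not overlap for 11 of 22 members, against 50.8% of all genes. The Hox sum was 176 ± 3.05 FPKM in wild-type and 112 ± 6.95 in sgNAT10 libraries. The median log2 change was −0.14 over the Hox genes and −0.08 over all genes.

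Hoxb9 had the largest change of any member called in TC1 cells. Its libraries held 62.3, 59.4 and 69.0 FPKM in wild-type and 0.680, 0.717 and 0.648 in sgNAT10 TC1 cells, so that the most abundant Hox transcript of the wild-type cells was under 1 FPKM in every sgNAT10 library. The log2 change was −6.58 ± 0.10 (SE, adjusted p = 1.21e-06). Hoxb8 (gene ENSMUSG00000056648, chr11:96281905-96285315, plus strand), next to Hoxb9, had 12.2, 14.5 and 12.3 against 2.12, 1.54 and 1.70 FPKM, a log2 change of −2.88 ± 0.10 (SE, adjusted p = 1.12e-05). Hoxb7, the next gene, had 1.20, 1.04 and 1.16 against 0.357, 0.320 and 0.433 FPKM, a log2 change of −1.58 ± 0.28 (SE, adjusted p = 0.00447). For all 3 of these neighbours no sgNAT10 library reached a wild-type library, and the log2 change was largest in size for Hoxb9 and smallest for Hoxb7.

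Further 3′ in the same cluster the differences were smaller. Hoxb6 had 8.36, 10.01 and 10.3 FPKM in wild-type and 9.80, 11.2 and 13.4 in sgNAT10 libraries, and these overlapped (adjusted p = 0.345). Hoxb4 had 5.41, 4.99 and 6.50 against 6.70, 8.41 and 7.18 FPKM, with every sgNAT10 library higher, but did not pass (adjusted p = 0.0854). Hoxb2 had 15.2, 16.5 and 19.3 against 17.4, 17.99 and 17.7 FPKM (adjusted p = 0.947). Hoxb3 was called lower at 22.5, 31.9 and 27.1 against 19.2, 21.1 and 21.9 FPKM, with a log2 change of −0.42 ± 0.13 (SE, adjusted p = 0.0442). This last call was lost under 12 of 14 other settings, and 52.9% of the annotated exon bases of Hoxb3 are shared with the antisense gene Hoxb3os.

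The precursor gene Mir196a-1 moved with Hoxb9. It had 18, 25 and 22 estimated counts in the wild-type TC1 libraries and 0 in each sgNAT10 library, at least 21.6-fold lower when a floor of 3 counts over the sgNAT10 group is used. Its adjusted p by edgeR was 0.00338. It was the only 1 of 6 tested noncoding RNAs of the clusters to be called in TC1 cells.

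In HoxA the changes were in the other direction and at the other end of the cluster. Hoxa5 (gene ENSMUSG00000038253, chr6:52201754-52204587, minus strand), which is needed for lung development, had 4.25, 4.10 and 4.24 FPKM in wild-type and 11.5, 12.8 and 12.2 in sgNAT10 TC1 libraries, a log2 change of 1.49 ± 0.09 (SE, adjusted p = 6.36e-05). Hoxa3, needed for the thymus and parathyroid, had 3.35, 3.55 and 3.90 against 7.46, 8.68 and 9.48 FPKM, a log2 change of 1.17 ± 0.13 (SE, adjusted p = 0.000685). Hoxa2, which patterns the branchial arches, had 2.58, 3.12 and 3.52 against 5.19, 7.66 and 7.93 FPKM, a log2 change of 1.12 ± 0.21 (SE, adjusted p = 0.00571). In these 3 genes every sgNAT10 library was above every wild-type library. Hoxa4, which lies between Hoxa3 and Hoxa5, was not called, at 3.44, 2.52 and 2.34 against 3.57, 3.14 and 3.81 FPKM.

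Of the more 5′ HoxA genes, Hoxa7 had 10.3, 12.1 and 11.7 FPKM in wild-type and 10.7, 9.27 and 11.2 in sgNAT10 TC1 libraries, and Hoxa9 had 4.27, 2.39 and 2.18 against 2.94, 2.77 and 3.57 FPKM. Both overlapped and neither was called (adjusted p = 0.26 and 0.608). The HoxA sum was 32.3 ± 2.37 FPKM in wild-type and 49.1 ± 3.29 in sgNAT10 libraries, and that of HoxB was 139 ± 9.56 against 62.2 ± 3.56. Positions 9 to 13 gave 39.8% of the Hox sum in wild-type and 3.86% in sgNAT10 libraries. In HoxC only Hoxc4 and Hoxc6 passed the filter, both through the wild-type group. Hoxc6 had 3.07, 0.648 and 0.309 against 0.0775, 0.0660 and 0.0689 FPKM, with a log2 change of −4.19 ± 0.90 (SE, adjusted p = 0.0103) that became −2.75 (adjusted p = 0.0205) without wild type 1. Hoxc4 had 0.515, 0.164 and 0.107 against 0.0496, 0.0786 and 0.0428 FPKM and a log2 change of −2.17 ± 0.71 (SE, adjusted p = 0.0491). This call was lost under 10 of 11 other settings, and without wild type 1 the log2 change was −1.12 (adjusted p = 0.245). Without that library the TC1 calls numbered 5 higher and 5 lower. The sum of fibroblast and pericyte markers was 146 to 188 FPKM in wild-type and 15.1 to 21.4 FPKM in sgNAT10 TC1 libraries, with 7 of 10 called lower, and its part in the Hox changes was not tested.

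**Figure D5:**
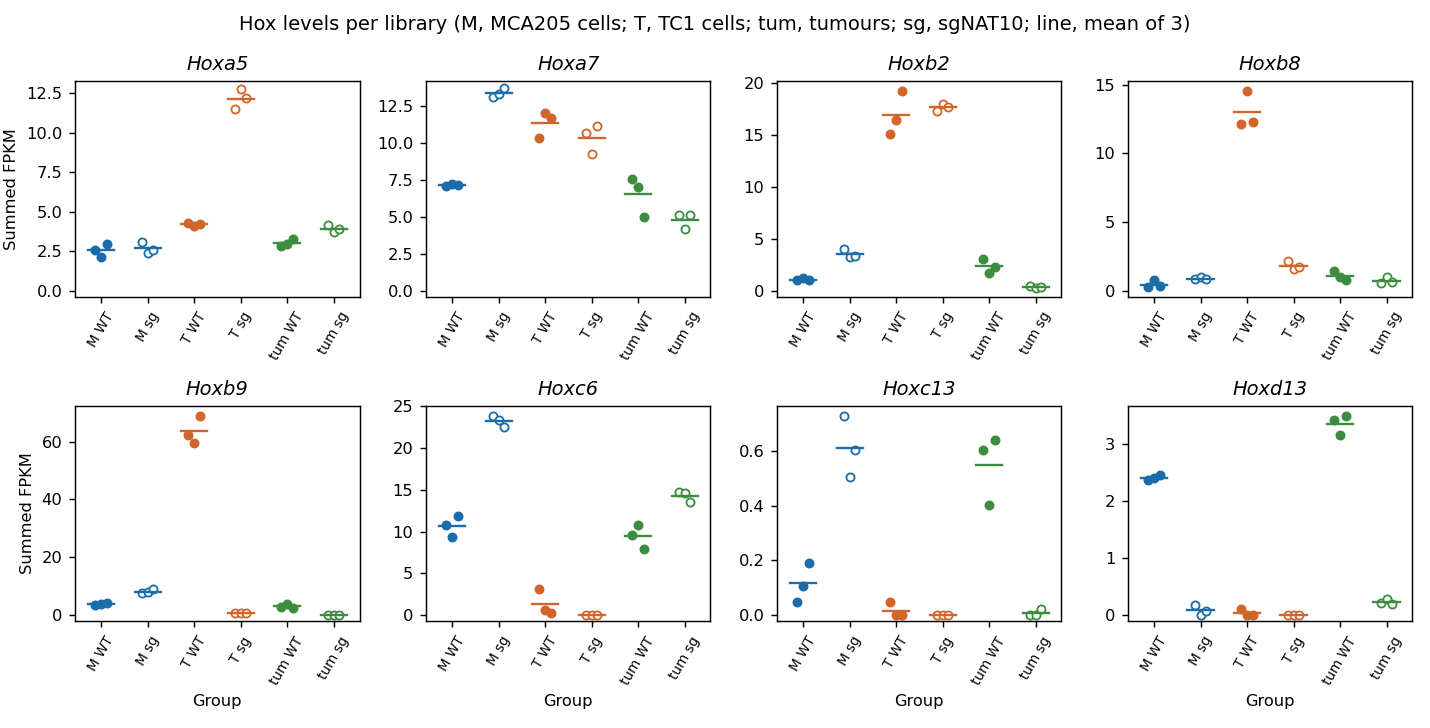
Each panel gives 1 Hox gene, with the 6 groups on the horizontal axis (M, MCA205 cells; T, TC1 cells; tum, tumours labelled TC1; WT, wild type; sg, sgNAT10) and summed FPKM on the vertical axis; points are libraries, filled for wild type, and lines are means of 3. Hoxb9 stands at 59.4 to 69.0 FPKM in wild-type TC1 cells and at 0.648 to 0.717 in their sgNAT10 counterparts, and Hoxd13 at 2.36 to 2.46 against 0 to 0.184 in MCA205 cells.

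In the tumours labelled TC1, all called Hox genes were lower with sgNAT10. Of 34 tested members 5 were lower and 0 higher by edgeR, 14.7% of those tested, where 17.4% of all 19244 genes were called (7.65% higher and 9.72% lower). A change of at least 2-fold was called for 4, where 7.86% of all genes had one. At an unadjusted p under 0.05 there were 3 higher and 10 lower. DESeq2 called 0 higher and 7 lower, and limma on log2(FPKM + 1) called 1 higher and 4 lower. Shares of all genes were not computed for unadjusted counts, here and below, or for DESeq2 and limma. Groups did not overlap for 17 of 34 members, against 40.4% of all genes. The median log2 change was −0.29 over the Hox genes and 0.02 over all genes.

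Hoxd13 had 3.42, 3.15 and 3.49 FPKM in wild-type and 0.221, 0.277 and 0.196 in sgNAT10 tumours, a log2 change of −3.96 ± 0.25 (SE, adjusted p = 0.00143). Hoxb9 had 2.93, 3.79 and 2.38 against 0.190, 0.183 and 0.111 FPKM, a log2 change of −4.32 ± 0.34 (SE, adjusted p = 0.00202). Hoxb2 had 3.06, 1.74 and 2.25 against 0.481, 0.215 and 0.310 FPKM, a log2 change of −2.51 ± 0.37 (SE, adjusted p = 0.00847). In all 3 genes the lowest wild-type tumour was well above the highest sgNAT10 tumour. The call of Hoxb2 was lost without sgNAT10 2 (adjusted p = 0.0504).

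Hoxd8 had 9.54, 7.81 and 8.14 FPKM in wild-type and 5.26, 4.70 and 5.34 in sgNAT10 tumours, without overlap, and a log2 change of −0.88 ± 0.18 (SE, adjusted p = 0.0201). This call was lost without wild type 2 or without any 1 of the sgNAT10 tumours, with adjusted p-values from 0.0167 to 0.0976 over the left-out libraries. Hoxc13, again named after its values were seen, had estimated counts of 132, 68 and 107 in wild-type and 0, 0 and 4 in sgNAT10 tumours, with an adjusted p of 0.0103. Both groups were below 1 FPKM.

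Most of the abundant members did not pass the test in tumours. Hoxa9 had 14.5, 17.5 and 16.7 FPKM in sgNAT10 tumours, Hoxa10 had 16.3, 17.8 and 15.2 and Hoxa11 had 10.3, 10.6 and 9.96, and all overlapped the wild-type tumours. Hoxa7 had 7.56, 7.05 and 4.98 FPKM in wild-type and 5.09, 4.15 and 5.15 in sgNAT10 tumours and overlapped too. Of HoxA, no member was called by edgeR among 11 tested, with 3 at an unadjusted p under 0.05. In HoxC, Hoxc6 had 9.64, 10.8 and 7.96 against 14.7, 14.7 and 13.5 FPKM and Hoxc4 4.54, 4.03 and 4.47 against 6.11, 6.599 and 5.44 FPKM. Neither overlapped and neither passed (adjusted p = 0.0871 and 0.146). Hoxc10 had 25.7, 20.9 and 22.9 against 19.5, 19.2 and 16.3 FPKM, with every sgNAT10 tumour lower, and an adjusted p of 0.0808. Hoxc8 was at 4.46, 5.23 and 6.77 FPKM in sgNAT10 tumours, against the wild-type values above. Hoxc9 had 7.93, 6.22 and 4.76 FPKM in wild-type and 6.06, 5.76 and 5.35 in sgNAT10 tumours. Hoxc11 was at 13.7, 14.7 and 12.02 FPKM in sgNAT10 tumours. In these last 3 genes the groups overlapped.

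The remaining HoxB members were low in the tumours. Hoxb8 had 1.44, 0.986 and 0.778 FPKM in wild-type and 0.523, 0.974 and 0.585 in sgNAT10 tumours, and Hoxb7 had 1.75, 1.75 and 1.27 against 1.07, 0.610 and 0.846 FPKM (adjusted p = 0.0812). Hoxb3 was at 1.52 to 1.75 FPKM over all 6 tumours, Hoxb4 at 0.477 to 1.12 and Hoxb6 at 1.28 to 2.50. The 3′ HoxA genes Hoxa2, Hoxa3 and Hoxa5 lay between 1.24 and 4.16 FPKM in them. The HoxB sum was 13.4 ± 0.667 FPKM in wild-type and 8.47 ± 0.303 in sgNAT10 tumours, and the HoxD sum 17.3 ± 1.42 against 11.96 ± 0.982, while the HoxA sums were 61.1 ± 2.31 and 60.3 ± 2.10 FPKM.

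Markers of host tissue and of liver differed between the tumour groups. Skeletal muscle markers summed to 25.6 to 30.7 FPKM in wild-type and 104 to 164 FPKM in sgNAT10 tumours, with 5 of 8 called higher. Endothelial markers summed to 41.2 to 62.2 against 75.6 to 89.4 FPKM, with 7 of 8 called higher. Fibroblast and pericyte markers summed to 480 to 1104 against 847 to 1075 FPKM and overlapped, with 3 of 10 called higher. Liver markers summed to 1.40, 55.2 and 222 FPKM in wild-type and to 523 to 580 FPKM in sgNAT10 tumours, without overlap, with 1 of 11 tested called higher and a median log2 change of 2.52. Macrophage markers summed to 1274 to 1760 against 1173 to 1349 FPKM. Skin and hair follicle markers summed to 2.37, 9.90 and 6.52 FPKM in wild-type and to 20.7, 1.33 and 210 FPKM in sgNAT10 tumours. These overlapped, and 0 of 4 tested were called. Krt71 and Krt25 of that list were at 0 in all 3 wild-type tumours. Of the other lists given here, none had a marker at 0 in all 3 libraries of a tumour group. The part of any of these lists in the Hox changes was not tested.

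The sgNAT10 effect itself differed between MCA205 and TC1 cells for a share of members close to that of all genes. An interaction contrast over 12 libraries, in which each effect stays within its own table, called 13 of 34 tested members, 38.2%, where 35.3% of all genes were called. In TC1 cells alone 22 members passed the filter, so for the others the TC1 effect rests on few counts. Hoxc11, which was not called, had 329, 0 and 0 estimated counts in wild-type and 0 in each sgNAT10 TC1 library. The effect was higher in MCA205 cells for 9 members, where 18.9% of all genes were, and lower for 4, where 16.4% were. Hoxb9 had the largest called difference among members of at least 1 FPKM, with log2 changes of 1.07 in MCA205 cells and −6.58 in TC1 cells and a difference of 7.60 ± 0.15 (SE, adjusted p = 8.3e-10). Its neighbours Hoxb8 and Hoxb7 had differences of 4.02 ± 0.37 (SE, adjusted p = 1.7e-05) and 4.58 ± 1.13 (SE, adjusted p = 0.00919). Hoxc6 had a difference of 5.29 ± 0.90 (SE, adjusted p = 0.00101), which was at least 3.97 when any 1 library was left out. Its size is uncertain, since Hoxc6 passed the TC1 filter only through the wild-type group. Its estimated counts were 270, 55 and 32 in wild-type and 8, 7 and 4 in sgNAT10 TC1 libraries, highest in wild type 1. The 3′ HoxA genes went the other way, with differences of −1.46 for Hoxa5, −1.27 for Hoxa3 and −1.19 for Hoxa2. Hoxc13 was the member below 1 FPKM among the 13, and its call was lost under 9 of 16 other settings (adjusted p = 1.0 without TC1 wild type 1).

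Between the tumours labelled TC1 and TC1 cells, the effect differed for 9 of 34 tested members, 26.5%, where 26.1% of all genes were called. It was higher in tumours for 4 members and lower for 5, against 13.1% and 13.0% of all genes. Hoxb2 differed by −2.52 ± 0.35 (SE, adjusted p = 0.000409), with a log2 change of −2.51 in tumours and 0.01 in TC1 cells. Hoxb9 was lower with sgNAT10 in both, with log2 changes of −6.58 in TC1 cells and −4.32 in tumours, and these differed by 2.26 ± 0.29 (SE, adjusted p = 0.000279). The 3′ genes Hoxa2, Hoxa3, Hoxa4 and Hoxa5 had lower effects in the tumours, with differences of −1.75, −1.47, −1.08 and −1.23. That of Hoxa4 was lost under 10 of 16 other settings.

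A further contrast, of MCA205 cells and tumours, was added after the data were seen, because their wild-type Hox levels were alike. It called 11 of 34 members, 32.4%, where 21.2% of all genes were called, with 9 effects higher in MCA205 cells (13.7% of all genes) and 2 lower (7.52%). Hoxb9 differed by 5.39 ± 0.32 (SE, adjusted p = 5.31e-06) and Hoxb2 by 4.15 ± 0.43 (SE, adjusted p = 0.000143), both being higher with sgNAT10 in MCA205 cells and lower in tumours. Hoxa7 differed by 1.71 ± 0.28 (SE, adjusted p = 0.00172). For Hoxc4 the difference was −0.92 ± 0.20 (SE, adjusted p = 0.00876) and for Hoxc8 −1.47 ± 0.41 (SE, adjusted p = 0.029). The calls of Hoxc8, Hoxb7, Hoxb8, Hoxc6 and Hoxd8 in this contrast were lost under 7, 8, 10, 9 and 7 of 16 other settings, nearly all of them the omission of 1 library, with adjusted p-values up to 0.0691, 0.0800, 0.0817, 0.0787 and 0.0858. The number of higher effects fell to 5 without MCA205 sgNAT10 1 or sgNAT10 3.

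Side by side, 4 members were called in both MCA205 and TC1 cells, of 8 and 10 called among the 22 tested in both. Hoxb8, Hoxb9 and Hoxc6 were higher in MCA205 and lower in TC1 cells. Hoxc6 was below 1 FPKM in every TC1 library other than wild type 1, and without that library its log2 change was −2.75. Hoxc4 was called lower in both, but its call in TC1 cells was lost without TC1 wild type 1, as given above, and that of Hoxb8 in MCA205 cells was lost under 7 of 13 other settings. Between MCA205 cells and tumours 4 members were shared, of 11 and 5 called among 33. Hoxd13 was lower in both, and Hoxb2, Hoxb9 and Hoxc13 were higher in MCA205 cells and lower in tumours. Hoxb9 was the single member called in all 3 comparisons. The share of all genes called in more than 1 comparison was not computed, so these shared calls are only a list. Singly, 40.6%, 37.9% and 17.4% of all genes were called in MCA205 cells, TC1 cells and tumours.

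Hoxa4 was called only in the contrast of tumours with TC1 cells. It had 2.24, 1.78 and 2.34 FPKM in wild-type and 2.51, 2.13 and 2.43 in sgNAT10 MCA205 libraries. In tumours it had 0.985, 0.883 and 1.03 FPKM in the wild-type and 0.551, 0.541 and 0.751 in the sgNAT10 group. The members outside the rule for values by library, among them Hoxc13 and Hoxd3 above, stayed below 5 FPKM in every library. Hoxd9, a gene of the lumbar region and the limbs, was between 2.06 and 4.39 FPKM in MCA205 cells and tumours, Hoxc5 between 1.59 and 3.18, and Hoxd4 between 0.674 and 3.35. In TC1 cells none of these 3 exceeded 0.287 FPKM. Hoxa6 lay between 0.134 and 2.05 FPKM over all 18 libraries, and Hoxa13, active in the limb tip and gut end, between 0 and 1.72. Hoxb5 ranged from 0.340 to 2.68 FPKM. Hoxb1, Hoxb13, Hoxc12, Hoxd1, Hoxd10, Hoxd11 and Hoxd12 stayed below 1 FPKM in every library that listed them.

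The cofactors of HOX proteins were measured with the same test. Of 9 TALE cofactor genes, 3 were called higher and 2 lower with sgNAT10 in MCA205 cells, 4 higher and 1 lower in TC1 cells, and 0 higher and 1 lower in tumours, where 1 was at an unadjusted p under 0.05. Of all genes, 40.6%, 37.9% and 17.4% were called in these comparisons, and the counts of this list and of those that follow are to be read against these shares. Meis1, a partner of HOXA9, was higher in both lines, from 0.889 ± 0.0686 to 1.93 ± 0.294 FPKM in MCA205 cells (log2 change 0.99 ± 0.13 SE, adjusted p = 0.00106) and from 8.40 ± 1.61 to 12.9 ± 2.34 FPKM in TC1 cells (log2 change 0.999 ± 0.13 SE, adjusted p = 0.00144). Pknox2 fell in MCA205 cells from 4.24 ± 0.335 to 0.644 ± 0.0291 FPKM, a log2 change of −2.66 ± 0.12 (SE, adjusted p = 9.77e-06). Pbx4 rose in TC1 cells (log2 change 1.36 ± 0.27 SE, adjusted p = 0.00722) and Pbx2 fell in tumours (log2 change −0.50 ± 0.11 SE, adjusted p = 0.0273).

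The machinery that holds Hox clusters silent or active was called in both directions in the cell lines, where 40.6% and 37.9% of all genes were called, against 17.4% in tumours. Of 31 Polycomb genes, 7 were higher and 14 lower in sgNAT10 MCA205 cells, 10 higher and 12 lower in TC1 cells, and 0 higher and 9 lower in tumours, where 12 were at an unadjusted p under 0.05. In TC1 cells Ring1, a ubiquitin ligase subunit of Polycomb complex PRC1, fell from 11.5 ± 0.552 to 4.85 ± 0.443 FPKM, a log2 change of −1.29 ± 0.10 (SE, adjusted p = 0.000151), while Pcgf3, another PRC1 subunit, rose from 12.2 ± 0.649 to 26.0 ± 0.463 FPKM (log2 change 1.04 ± 0.06 SE, adjusted p = 6.64e-05). In tumours Phf19, a PRC2 accessory protein, fell from 11.8 ± 1.67 to 6.26 ± 0.524 FPKM (log2 change −1.01 ± 0.12 SE, adjusted p = 0.0046). Of 16 trithorax and demethylase genes, 7 were higher and 5 lower in MCA205 cells, 4 and 5 in TC1 cells and 1 and 3 in tumours. Kmt2a, the MLL methyltransferase that maintains Hox transcription, rose in MCA205 cells from 4.21 ± 0.118 to 5.54 ± 0.376 FPKM (log2 change 0.40 ± 0.05 SE, adjusted p = 0.00062) and fell in TC1 cells from 7.85 ± 0.616 to 5.80 ± 0.282 FPKM (log2 change −0.48 ± 0.08 SE, adjusted p = 0.00324).

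Retinoic acid genes take up, make, bind or respond to retinoic acid. Of the 19 listed, 4 were higher and 6 lower of 17 tested in MCA205 cells, 1 higher and 4 lower of 16 in TC1 cells and 3 higher and 5 lower of 17 in tumours, where 40.6%, 37.9% and 17.4% of all genes were called. Stra6, a membrane receptor for vitamin A uptake, fell from 9.40 ± 0.512 to 1.09 ± 0.0650 FPKM in MCA205 cells (log2 change −3.13 ± 0.09 SE, adjusted p = 1.72e-06) and from 22.5 ± 2.92 to 7.46 ± 1.41 FPKM in tumours (log2 change −1.75 ± 0.12 SE, adjusted p = 0.00195). Crabp1, which binds retinoic acid in the cytoplasm, fell in TC1 cells from 544 ± 52.4 to 2.64 ± 0.802 FPKM (log2 change −7.73 ± 0.25 SE, adjusted p = 8.37e-06) and rose in MCA205 cells from 68.2 ± 2.76 to 102 ± 4.64 FPKM (log2 change 0.59 ± 0.05 SE, adjusted p = 0.000205).

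Genes that flank the clusters were called in both directions in the cell lines, where 40.6% and 37.9% of all genes were called. Of 29 listed, 4 were higher and 5 lower of 21 tested in MCA205 cells, 3 and 4 of 22 in TC1 cells, and 1 and 0 of 23 in tumours (17.4% of all genes), where 8 were at an unadjusted p under 0.05. Snx10, a sorting nexin gene beside HoxA, rose in MCA205 cells from 13.7 ± 0.800 to 20.8 ± 1.25 FPKM (log2 change 0.54 ± 0.06 SE, adjusted p = 0.00041) and in tumours from 24.3 ± 4.18 to 43.4 ± 8.61 FPKM (log2 change 0.73 ± 0.15 SE, adjusted p = 0.0195). Of 18 noncoding RNAs of the clusters, 8 were tested in MCA205 cells, 6 in TC1 cells and 9 in tumours, with Hoxb3os higher, Mir196a-1 lower and 0 called in that order and 1 at an unadjusted p under 0.05 in the tumours. Hotair, a long noncoding RNA of HoxC, had 1.81 ± 0.356 FPKM in wild-type and 2.87 ± 0.395 in sgNAT10 tumours and was not called (log2 change 0.56 ± 0.22 SE, adjusted p = 0.121). Of the 8 ParaHox, Evx and Cdx genes 2, 2 and 1 passed the filter, and none of them was called or at an unadjusted p under 0.05.

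Annotated overlap limits how exactly single members can be read. On mm10, 16 Hox genes share exon bases with another annotated gene, 10 of them with a gene on the opposite strand and 4 with another Hox gene. The shared part is 35.0% of exon bases for Hoxa11 with Hoxa11os and 27.3% for Hoxb2 with Hoxb3os. No source used here gives the strand setting of the counting, so reads of such pairs cannot be told apart. On the same strand, the gene Gm28230 shares 53.1% of the exon bases of Hoxd3 and 39.15% of those of Hoxd4.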

How the data were processed

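RNA from 18 libraries was sequenced by the authors. Bowtie2, featureCounts, FastQC and Trim Galore are named, per the submitters' processing notes, with the build mm10 but no version or role. Each of 3 deposited tables lists transcripts with FPKM values, scaled to transcript length and library size per the file headers, and with estimated counts deposited as whole numbers. No source used here says how the estimates were made. Columns named KO were taken as the libraries titled sgNAT10, and 0 columns were without a sample.

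Transcript values were summed per gene. All 78 Hox transcripts had the coordinates of GENCODE vM21. The 6 libraries of each table were fitted with edgeR 4.0.16 quasi-likelihood tests (TMM, default expression filter) on the counts, with Benjamini-Hochberg adjustment over all genes tested, and a call at an adjusted p under 0.05. SE was derived from the log2 change and the F statistic. Differences of effects were contrasts over 12 libraries. Levels are means ± SD over 3 libraries, and levels across tables are descriptions, since tables may have been normalised separately. Members and lists were chosen with earlier results of these data known. Values by library were taken for members that reached a mean of 5 FPKM in a group, or were called with a mean of at least 1 FPKM, and from other lists up to 4 genes with the smallest p, of which a selection is printed. For 1 member, counted in the totals, no values are reported here. Alternatives used R 4.3.3, limma 3.58.1 and DESeq2 1.42.0. The edgeR step was tested on simulated data. Sequences are from RefSeq (GRCm38.p6).

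Libraries with the same replicate number deviated from their group means with correlations of −0.51, −0.56 and 0.27 in MCA205 cells, between −0.07 and 0.01 in TC1 cells and between −0.07 and 0.01 in tumours, so the numbers were not taken to pair libraries.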

Additional observations from a re-analysis of the deposited data

Results flagged for a closer look

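The following differences between sgNAT10 effects were called in interaction contrasts by edgeR with Benjamini-Hochberg adjustment, for 1 member below 1 FPKM, Hoxc13, and otherwise for members with a mean of at least 1 FPKM in a group. Each value is the log2 change of 1 setting minus that of the other, and no cause was tested.

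Effects in MCA205 cells minus those in TC1 cells were negative for the 3′ HoxA genes: −1.19 for Hoxa2, −1.27 for Hoxa3 and −1.46 for Hoxa5. They were positive for Hoxa7 (1.16) and in HoxB for Hoxb2 (1.57), Hoxb3 (0.87), Hoxb4 (1.17), Hoxb7 (4.58), Hoxb8 (4.02) and Hoxb9 (7.60). In HoxC, Hoxc6 differed by 5.29, with a wild-type TC1 level that rests largely on wild type 1. Hoxc13 differed by 6.83, a call lost under 9 of 16 other settings.

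Effects in MCA205 cells minus those in tumours labelled TC1, a contrast added after the data were seen, were positive for Hoxa7 (1.71), Hoxb2 (4.15), Hoxb4 (2.11), Hoxb7 (4.14), Hoxb8 (2.00), Hoxb9 (5.39), Hoxc6 (0.69), Hoxc13 (8.44) and Hoxd8 (0.68). They were negative for Hoxc4 (−0.92) and Hoxc8 (−1.47). Under 16 other settings the calls of Hoxb7, Hoxb8, Hoxc6, Hoxd8 and Hoxc8 were lost 8, 10, 9, 7 and 7 times. The size of the Hoxc13 difference rests on estimated counts of 0, 0 and 4 in sgNAT10 tumours. It ranged from 7.88 to 11.98 when 1 library was left out.

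Effects in tumours labelled TC1 minus those in TC1 cells were negative for Hoxa2 (−1.75), Hoxa3 (−1.47), Hoxa4 (−1.08), Hoxa5 (−1.23) and Hoxb2 (−2.52). They were positive for Hoxb8 (2.08), Hoxb9 (2.26), Hoxc4 (2.53) and Hoxc6 (4.66). The call of Hoxa4 was lost under 10 of 16 other settings and that of Hoxc4 without TC1 sgNAT10 3 (adjusted p = 0.0531). The wild-type TC1 levels of Hoxc4 and Hoxc6 rest largely on wild type 1.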

How the results depend on the processing

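The 59 called changes of members gave 889 values under other settings, and 0 of these reversed direction. The call was lost in 101 of them, and 43 of the 59 changes kept it under every setting that gave a value. Among counts, the lower calls in MCA205 cells numbered 5 with a filter of 1 CPM and 6 with DESeq2, against 3. Those in TC1 cells numbered 3 with a filter of 1 CPM and with limma at either pseudocount, against 6. In tumours 1 member was called higher with library size alone and with limma at either pseudocount, against 0. Leaving out each library gave 6 to 8 higher and 2 to 3 lower calls in MCA205 cells, 4 to 5 and 4 to 6 in TC1 cells, and 0 to 2 and 3 to 6 in tumours (2 higher without wild type 1, 3 lower without sgNAT10 2). Differing effects ranged from 8 to 14 higher and 4 to 5 lower for MCA205 against TC1 cells, from 3 to 8 and 4 to 6 for tumours against TC1 cells, and from 5 to 10 and 1 to 2 for MCA205 cells against tumours. The highest counts of the contrasts with TC1 cells, 14 and 8, came without TC1 wild type 3. The cause was not tested. Counts of all members at 1 FPKM moved by at most 1.5 times at 0.5 or 2 FPKM. Within clusters, at 2 FPKM 7 HoxA and 1 HoxB members of wild-type MCA205 cells remained, against 11 and 4.

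With the replicate block, MCA205 cells had 8 higher and 2 lower calls, TC1 cells 4 and 4, and tumours 0 and 4. The block ended the calls of Hoxd13 in MCA205 cells (−5.56, adjusted p = 0.0518), Hoxb3 (−0.41, 0.0547) and Hoxc4 (−1.89, 0.104) in TC1 cells and Hoxd8 in tumours (−0.86, 0.061) and no other call of a member under the 3 comparisons of sgNAT10 with wild type. The edgeR adjusted p-values for members of few counts, such as Hoxc13, Hoxb7 and Hoxd13 in sgNAT10 cells, rest on little depth.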
